A study of Homo sapiens with 6 samples.

Results

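The spliceosome is the ribonucleoprotein machine that removes introns from pre-mRNA, and 57 listed genes for its protein components were followed here in SW480 cells with and without knockdown of the splicing factor RBM39. The genes were chosen by name as proteins of the small nuclear ribonucleoproteins (snRNPs) and of the spliceosome, and the rule uses no measured value, but the list was drawn up with earlier results of these data known. All 57 were present among the 56303 genes of the count table, and all 57 were among the 18243 genes with enough counts to be tested.

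An intron is first marked by the U1 snRNP at its 5′ splice site and by SF1 and the U2AF proteins at its branch point and 3′ splice site. The U2 snRNP then takes the branch point, the U4/U6.U5 tri-snRNP joins, and RNA helicases rearrange the complex until the Prp19 complex and the late factors complete both catalytic steps. RBM39 is an RNA-binding protein related to U2AF2 that takes part in 3′ splice site choice.

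SW480 is an established line from a human colon adenocarcinoma. The control group (shCtrl, genotype WT in the labels) carried a nonsilencing hairpin and the other group (shRBM39) a hairpin against RBM39. Both were delivered by lentivirus into the same line, and per the study's methods stable clonal lines were selected with puromycin, so a difference between the hairpins and a difference between clones cannot be told apart. Each group had 3 libraries of stranded mRNA. The study describes them as independent replicate experiments. The labels do not say whether they came from separate cultures, and the p-values measure the spread between these libraries.

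RBM39 mRNA was counted at 441, 448 and 435 CPM in the shCtrl libraries and at 266, 276 and 292 CPM in the shRBM39 libraries, where CPM is the count relative to the library's size after scaling by the trimmed mean of M values. It was lower in all 3 knockdown libraries, by a log2 fold change of -0.67 (SE 0.04, adjusted p = 1.24e-16). The libraries held 18042924 to 20428901 counts each. The scaling factors were 1.03 to 1.05 in shCtrl and 0.955 to 0.96 in shRBM39, so they moved with the group. All 6 colon epithelial markers were detected, with EPCAM at 577 to 645 CPM in the 6 libraries. Their log2 fold changes, shRBM39 minus shCtrl, did not go in one direction. They were 0.43 for KRT8, 0.24 for KRT18, 0.07 for KRT19, 0.02 for EPCAM, -0.09 for VIL1 and -2.13 for CDX2. The intestinal transcription factor CDX2 went from 21.3 to 22.4 CPM in shCtrl to 4.65 to 5.56 CPM in shRBM39. Of the 5 markers of other cells the leukocyte marker PTPRC had 0 counts in every library and COL1A2 was near 0. COL1A1 and PECAM1 were higher in shRBM39 by log2 fold changes of 0.81 (SE 0.11) and 0.79 (SE 0.14). ALB, at 0.43 (SE 0.20), did not pass the edgeR test used below (adjusted p = 0.0724). The summed level of the 5 was 9.92 to 11.1 CPM in shCtrl and 16 to 18.8 CPM in shRBM39. The part of these markers in the results was not tested. In bulk RNA, fewer cells of a type and less RNA per cell cannot be told apart.

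Most spliceosome genes were higher in the knockdown libraries. Of the 57, 48 rose, 5 fell (SNRNP48, PRPF40B, PRPF38B, SF3A2 and SNRPA) and 4 did not pass the test (SNRNP200, CWC22, U2AF1L4 and SNRNP35). Calls came from the quasi-likelihood test of edgeR, at a Benjamini-Hochberg adjusted p under 0.05. The test called 59.1% of all tested genes, 29.2% higher and 29.9% lower, beside 84.2% of the spliceosome genes higher and 8.77% lower. Shares called, and the shares without overlap given below, also depend on the counts per gene. The 57 were not matched with other genes on counts. The median log2 fold change was 0.40 over the 57 genes and -0.014 over all tested genes. Of the 57, 39 lay above the upper quartile of all tested genes (0.28) and 1, SNRNP48, lay below their lower quartile (-0.32).

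**Figure D1:**
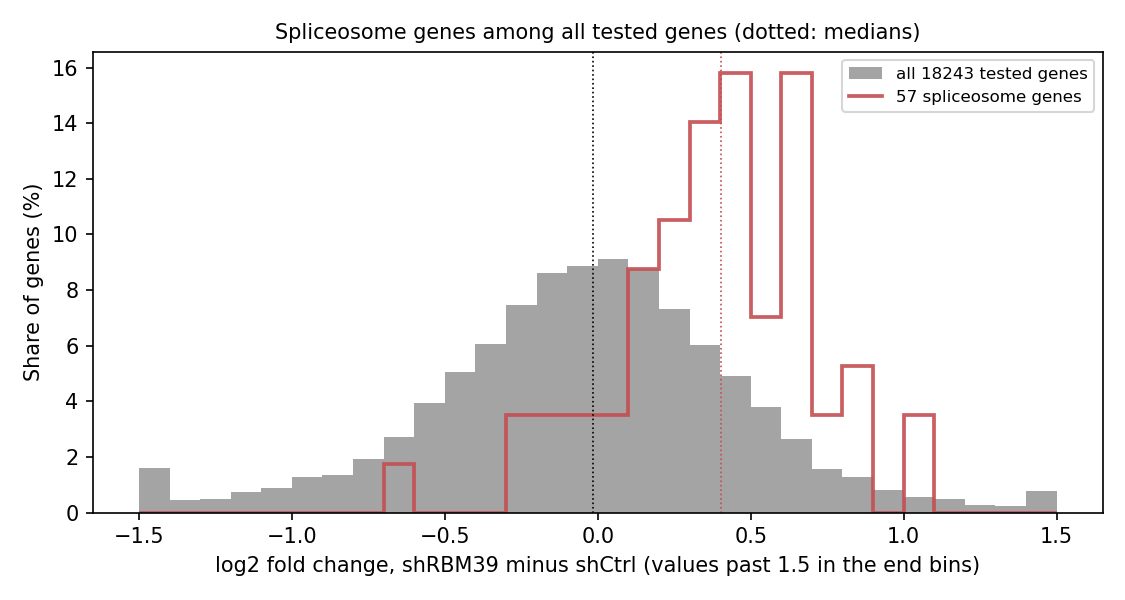
Shares of genes in percent (vertical axis) by log2 fold change, shRBM39 minus shCtrl (horizontal axis, bins of 0.1), for the 57 spliceosome genes (red line) and all 18243 tested genes (grey area). The dotted lines are the medians, 0.40 and -0.014, and most of the red outline lies to the right of the grey peak.

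The changes were mostly moderate. When tested against a log2 fold change of 0.5 in either direction (edgeR glmTreat), 15 of the 57 were higher by more than that and 1 was lower by more than that, beside 5.65% and 6.58% of all tested genes. The summed level of the 57 was 10368, 10150 and 10155 CPM in shCtrl and 13366, 13394 and 13209 CPM in shRBM39, which is 30.3% more and without overlap between the groups. That percentage rests on the scaled CPM, and its size depends on the scaling. As a share of unscaled counts the 57 made up 1.06% to 1.28% over the 6 libraries. CPM values of the groups did not overlap for 53 of the 57 genes, 48 of them higher, beside 63.3% and 31.0% of all tested genes. Scaling by library totals alone moved the median of all tested genes to -0.14 and that of the 57 to 0.28, which left the distance between them at 0.42. With totals alone 33.9% of all calls were higher instead of 49.4%, and 42 spliceosome genes were called higher and 8 lower.

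**Figure D2:**
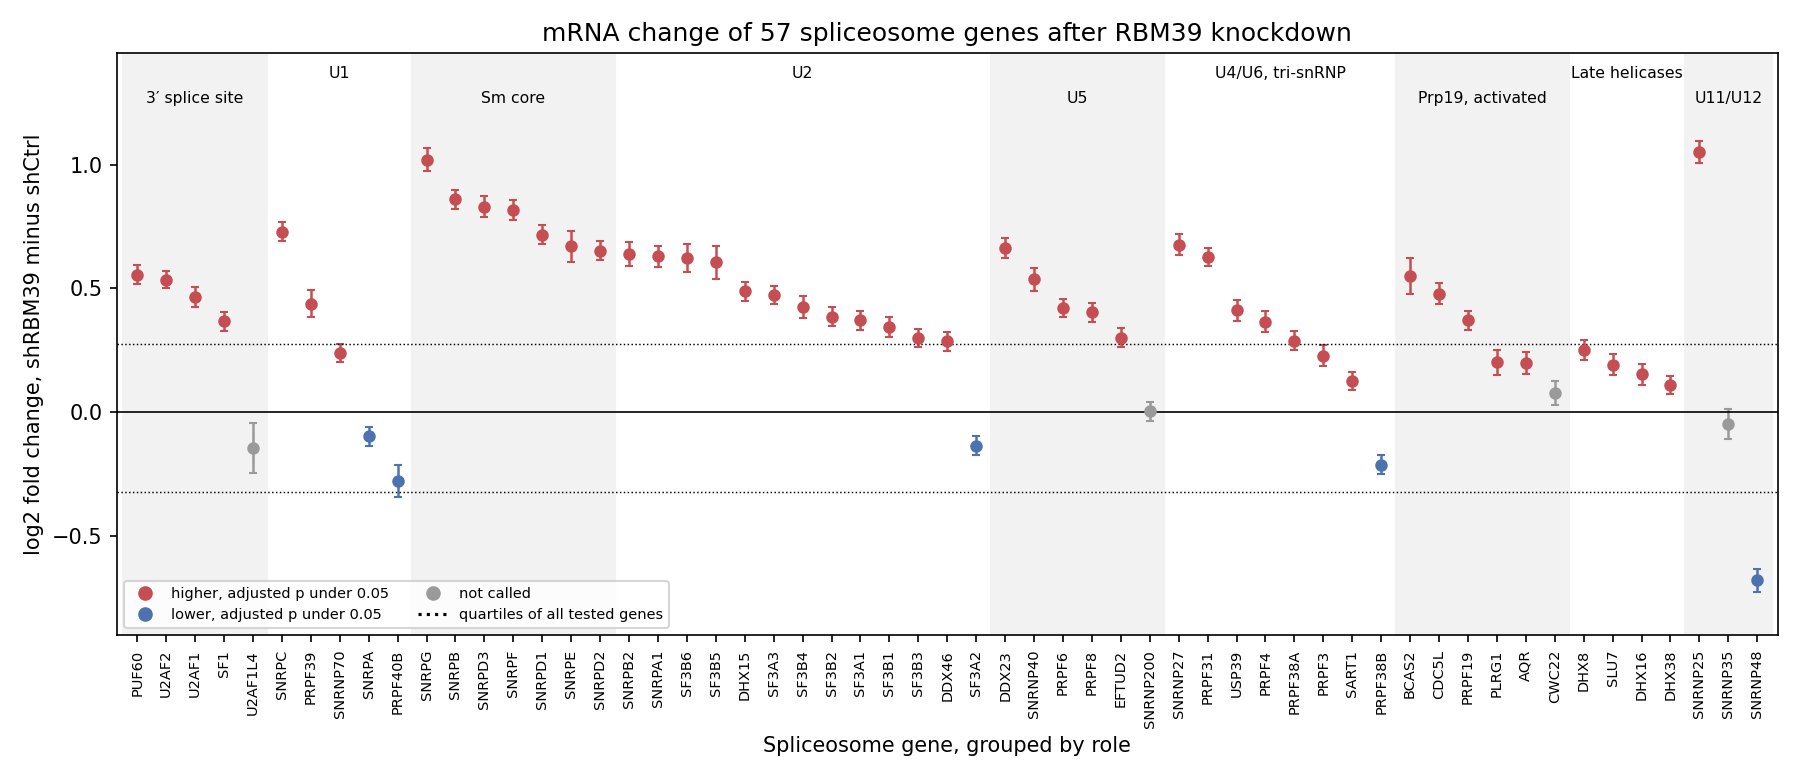
Log2 fold change, shRBM39 minus shCtrl, with its standard error (vertical axis) for each of the 57 spliceosome genes (horizontal axis), grouped by role, 3 libraries per group. Red points were called higher (48), blue points lower (5) and grey points were not called (4); the dotted lines are the quartiles of all tested genes, and all 7 Sm core genes lie above the upper one. With scaling by library totals alone SNRNP200, CWC22 and DHX38 lie below 0.

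Levels of different genes were compared per kilobase of merged exons. In shCtrl they ran from 2.86 CPM per kb for PRPF40B to 275 CPM per kb for SNRPB, with a median of 26.5. After SNRPB came SNRPC at 138, SNRPD2 at 106 and SART1 at 101 CPM per kb, and next to PRPF40B at the low end stood U2AF1L4 at 3.09 and AQR at 3.77 CPM per kb. Part of the SNRPB level is uncertain, since 20% of its exon bases are shared with a gene on the same strand, RP4-734P14.4, which has 48760 counts of its own.

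The splicing of the same genes was read from the authors' table of events, whose values are named group 1 and group 2, 3 of each, with no key to the hairpins. Those names are kept here, and no direction of knockdown is drawn from them. The table lists only events that the authors selected on p and size, so its values are given as a description without a test. It held 10 events in 5 of the 57 genes (SF1, SNRNP70, SNRPA1, PRPF39 and PRPF40B), which is 8.77% of them beside 6.54% of all tested genes. For a skipped exon, the inclusion level is the share of the form with the exon among the forms with and without it. Where an exon or 3′ splice site is set against another, the level is its share of that pair. It is then not the share of transcripts with the exon, since a transcript can carry both exons. Reads were corrected for the length they can fall on. Each skipped exon and the PRPF39 pair are printed below with the gene that carries them. The letters are in lower case, 5′ to 3′ on the gene's strand in GRCh38, from 20 intron bases before the exon to 6 after it. Capitals mark the AG and GT at the intron ends, which the spliceosome itself reads.

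Of the 5 genes for 3′ splice site and branch point recognition, 4 rose and 1 did not pass the test, with a median log2 fold change of 0.46. PUF60, a U2AF2-related protein that binds pyrimidine tracts, had the highest change. It was counted at 137, 130 and 134 CPM in shCtrl and at 198, 202 and 188 CPM in shRBM39, a log2 fold change of 0.56 (SE 0.04, adjusted p = 2.54e-14). The groups did not overlap.

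U2AF2, the large U2AF subunit that binds the pyrimidine tract, rose by 45% (log2 fold change 0.54), and U2AF1, the small subunit that reads the AG, by 38% (0.46). U2AF1 has a near-identical copy in the assembly, U2AF1L5, which was counted at 35.6 to 42 CPM and rose by 0.20 on the log2 scale, so reads could be split between the copies. U2AF1L4, a paralogue of the small subunit, was low, at 8.58, 8.76 and 9.3 CPM in shCtrl and 8.37, 6.97 and 8.67 CPM in shRBM39 (log2 fold change -0.14, SE 0.10, adjusted p = 0.219). Its groups overlapped, and 24.8% of its exon bases are shared with AD000671.6 on the same strand.

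SF1, which binds the branch point before the U2 snRNP does, was counted at 379, 399 and 387 CPM in shCtrl and at 514, 505 and 484 CPM in shRBM39. It rose by 29% without overlap (log2 fold change 0.37, SE 0.04, adjusted p = 1.93e-10). SF1 (chr11:64764606-64778786, minus strand) also had 4 of the 10 splicing events, all at the alternative 3′ end of the gene. A coding exon there (chr11:64765951-64766155), which is present in 2 GENCODE v44 transcripts, had 13 pyrimidines in the 18 bases before its AG.
SF1 alternative exon: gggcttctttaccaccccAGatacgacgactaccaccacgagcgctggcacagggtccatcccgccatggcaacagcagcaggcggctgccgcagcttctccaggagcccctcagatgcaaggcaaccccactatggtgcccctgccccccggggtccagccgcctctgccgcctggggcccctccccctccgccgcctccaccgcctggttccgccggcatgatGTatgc

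Group 1 included this exon at levels of 0.563, 0.45 and 0.511, against 0.713, 0.731 and 0.829 in group 2. The difference was -0.25, with at least 87 reads in each value, and -0.163 without the length correction. Every value of group 1 lay below every value of group 2. At the same acceptor, the choice of the long last exon over the shorter one that starts downstream stood at 0.342, 0.221 and 0.302 for group 1 against 0.504, 0.525 and 0.675 for group 2 (difference -0.28, or -0.183 without the length correction). Both events count nearly the same skipping reads, 28 to 29 in group 1 and 8 to 17 in group 2, and are therefore not independent. The other two SF1 events set exon 11 against exon 12 of 13 and differed by -0.14 before the short last exon and by 0.12 before the long one. The reads against exon 11 in them largely repeat those of the first pair.

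The U1 snRNP and its associated proteins moved in both directions: 3 of the 5 rose and 2 fell, and the median log2 fold change was 0.24. SNRPC, the U1-C protein that stabilises pairing with the 5′ splice site, was counted at 170, 178 and 180 CPM in shCtrl and at 287, 293 and 296 CPM in shRBM39. It rose by 65.8% without overlap (log2 fold change 0.73, SE 0.04, adjusted p = 5.11e-18). SNRPA, the U1-A protein that binds a loop of U1 RNA, was at 152, 143 and 145 CPM in shCtrl and 136, 137 and 137 CPM in shRBM39. That fall was small (log2 fold change -0.10, SE 0.04, adjusted p = 0.0285), and the call was lost with DESeq2 (adjusted p = 0.085), with no filter on low counts (0.0994) and when shCtrl replicate 1 or 3 or shRBM39 replicate 1 or 2 was left out (0.051 to 0.173).

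SNRNP70, the U1-70K protein that binds the first stem-loop of U1 RNA, was at 457, 446 and 442 CPM in shCtrl and at 534, 542 and 515 CPM in shRBM39 (log2 fold change 0.24, SE 0.04, adjusted p = 7.54e-07). All knockdown libraries lay above all controls. It also had the most deeply read splicing event of the set, in exon 2 of 10 of its canonical transcript (chr19:49086405-49086561, plus strand, 157 bases). This exon carries the start codon at position 49086415, which is shown in capitals with the AG and GT, and 15 of the 18 bases before its AG are pyrimidines.
SNRNP70 exon 2: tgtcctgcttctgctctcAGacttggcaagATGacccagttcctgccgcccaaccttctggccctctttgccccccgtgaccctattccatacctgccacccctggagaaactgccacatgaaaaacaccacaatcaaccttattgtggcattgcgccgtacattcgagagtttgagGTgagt

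Inclusion of this exon was 0.827, 0.859 and 0.822 for group 1 against 0.977, 0.98 and 0.976 for group 2. The difference was -0.142, without overlap. The reads that skip it numbered 107 to 149 in group 1 and 13 to 15 in group 2, beside inclusion reads of 1439 to 1567 and 1376 to 1412, so the difference lay mainly in the skipping reads. Without the length correction it was -0.0715. The skipping reads start from an upstream exon (chr19:49085423-49085636) that is in 1 GENCODE transcript, whose coding sequence begins at position 49090342 in the next exon, whereas exon 2 itself is in 6 transcripts. Inclusion reads can therefore come from transcripts with other first exons. A second event that set exon 2 against exon 3 after the same upstream exon gave exon 2 levels of 0.568, 0.612 and 0.547 for group 1 against 0.685, 0.687 and 0.684 for group 2 (difference -0.11). Both SNRNP70 events use that upstream exon and exon 2, so they can share reads and are not independent.

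PRPF39, a U1-associated protein of the 5′ splice site complex, was at 27.7, 26.2 and 26.9 CPM in shCtrl and at 36.5, 34.5 and 38.5 CPM in shRBM39. It rose by 35.5% without overlap (log2 fold change 0.44, SE 0.06, adjusted p = 2.99e-08), and 13.2% of its exon bases lie opposite FKBP3. Its single splicing event set exon 5 (chr14:45102529-45102696) against exon 6 (chr14:45107451-45107616) of 14. Both are coding exons of the canonical transcript, between exon 4 and exon 7, and a transcript can carry both. Against exon 6, exon 5 stood at 0.236, 0.261 and 0.172 for group 1 and at 0.0887, 0.162 and 0.0904 for group 2. These levels differ by 0.109, rest on as few as 42 reads and are not the share of transcripts with exon 5. The pair is shown because the tracts before the AG differ, with 10 pyrimidines of 18 bases before exon 5 and 16 of 18 before exon 6.
PRPF39 exon 5: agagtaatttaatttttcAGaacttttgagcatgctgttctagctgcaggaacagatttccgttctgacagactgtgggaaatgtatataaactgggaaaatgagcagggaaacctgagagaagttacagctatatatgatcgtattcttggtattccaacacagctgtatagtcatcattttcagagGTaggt
PRPF39 exon 6: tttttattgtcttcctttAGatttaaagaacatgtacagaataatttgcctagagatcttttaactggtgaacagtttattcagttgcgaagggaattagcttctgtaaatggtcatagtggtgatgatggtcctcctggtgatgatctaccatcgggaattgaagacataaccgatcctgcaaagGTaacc

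PRPF40B, a WW-domain protein thought to bridge the U1 snRNP and the branch point, went the other way. It was at 29, 26.4 and 25.7 CPM in shCtrl and at 20.5, 23 and 23.5 CPM in shRBM39, a fall without overlap (log2 fold change -0.28, SE 0.07, adjusted p = 0.000486). Of its exon bases 28% lie opposite FMNL3, whose 5263 counts exceed its own 2920, and reads of the 2 cannot be told apart if strand was not used in counting. The inclusion level of its exon 7 of 26 (chr12:49633014-49633124, 111 coding bases) was 0.618, 0.618 and 0.152 for group 1 against 0.73, 1.0 and 1.0 for group 2. The difference of -0.447 was the largest of the 10 events but rested on as few as 4 reads in a value, and it was -0.292 without the lowest value of group 1. The tract before its AG has 15 pyrimidines of 18 bases.
PRPF40B exon 7: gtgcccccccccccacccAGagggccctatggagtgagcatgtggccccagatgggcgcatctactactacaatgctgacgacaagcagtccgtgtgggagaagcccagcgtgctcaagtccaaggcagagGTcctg

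The Sm core, the ring of 7 proteins loaded on the U1, U2, U4 and U5 RNAs and their minor counterparts, rose as a whole. All 7 genes passed the test higher, all 7 by more than 0.5 on the log2 scale, and the median log2 fold change was 0.82. All 7 stayed called higher under each alternative run, and 5 were past 0.5 with library totals alone. Their summed level was 955, 931 and 918 CPM in shCtrl and 1571, 1638 and 1652 CPM in shRBM39, 73.4% more, while the 13 U2 genes summed to 29% more and the 4 late factors to 10.2% more. These percentages rest on the scaled CPM, and their size depends on the scaling. As a share of unscaled counts over the 6 libraries, the Sm core ran from 0.096% to 0.158%. The U2 genes ran from 0.273% to 0.329% and the late factors from 0.0802% to 0.084%. SNRPG had the largest change. It was counted at 47.7, 44.1 and 45.7 CPM in shCtrl and at 89.2, 92.5 and 96.9 CPM in shRBM39, 2.03-fold higher (log2 fold change 1.02, SE 0.05, adjusted p = 1.72e-19). SNRPD2 had the smallest, from 171, 168 and 173 CPM to 262, 276 and 267 CPM (log2 fold change 0.65, SE 0.04, adjusted p = 8.93e-17). No Sm gene had overlapping groups. Between these lay SNRPB at 0.86, SNRPD3 at 0.83, SNRPF at 0.82, SNRPD1 at 0.72 and SNRPE at 0.67. Of the SNRPD3 exon bases 12% are shared with GGT1 on the same strand and 12.6% lie opposite GUCD1. SNRPN, the close relative of SNRPB, had 0 counts in every library.

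Promoter sequences of the Sm genes were looked at because these genes moved together. RefSeq promoters (GRCh38.p14, 250 bases before to 50 after the start) matched 51 of the 57 genes and 6 of the 7 Sm genes. The letters CCGGAAG, the core bound by ETS factors, were found on either strand in 4 of these 6, and each is shown in capitals in a window of 30 bases.
SNRPB: agtgagctggaCCGGAAGtaggtttctacc
SNRPD2: ggtccatgcccCTTCCGGatgtaggcaggg
SNRPE: ttctttattCCGGAAGttgctctcagaggc
SNRPG: cttcatttcttCTTCCGGtccgaggtcgcc

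The windows lie at chr20:2470812-2470841 for SNRPB, chr19:45692361-45692390 for SNRPD2, chr1:203861597-203861626 for SNRPE and chr2:70293490-70293519 for SNRPG, each printed along the gene's strand. In SNRPD2 and SNRPG the match is on the opposite strand and so reads CTTCCGG. The match began 41, 63, 241 and 50 bases before the RefSeq start used for SNRPB, SNRPD2, SNRPE and SNRPG. Each match lies inside its gene as counted, whose annotated start is further upstream, so the distance depends on the start chosen. Over all spliceosome genes 25 of 51 promoters (49.0%) held the letters, beside 18.4% of the 10702 promoters of tested genes and 10.7% of all 27305 promoters. The genes with a match include some that rose (SNRPC, SNRNP27) and some that did not (SF3A2, SNRNP200), and a match is a description of the letters only.

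The U2 snRNP, which pairs with the branch point, rose nearly throughout: 12 of its 13 genes were called higher and 1 lower, with a median log2 fold change of 0.43. SNRPB2, the U2-B″ protein that binds U2 RNA, was highest. It was at 38.4, 36.3 and 35.2 CPM in shCtrl and at 58.5, 56.4 and 56.1 CPM in shRBM39 (log2 fold change 0.64, SE 0.05, adjusted p = 1.8e-13). The groups were clearly apart. Its partner SNRPA1, the U2-A′ protein, was at 104, 93.6 and 99.4 CPM in shCtrl and at 151, 150 and 158 CPM in shRBM39 (log2 fold change 0.63, SE 0.04, adjusted p = 5.23e-15).

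Among the SF3B proteins, which clamp the branch helix, the changes ran from 0.30 for SF3B3 to 0.62 for SF3B6, with SF3B1, the large scaffold, at 0.34. SF3A3 and SF3A1 rose by 0.48 and 0.37, but the third SF3A subunit fell. SF3A2 was at 182, 182 and 176 CPM in shCtrl and at 164, 168 and 161 CPM in shRBM39 (log2 fold change -0.13, SE 0.04, adjusted p = 0.00239), and its groups did not overlap. The 3 proteins of the SF3A complex thus did not move in one direction, and 12.7% of the SF3A2 exon bases lie opposite PLEKHJ1.

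SNRPA1 had 2 splicing events. Its exon 4 of 9 (chr15:101287656-101287702, minus strand) is only 47 bases long, not a multiple of 3, and has 11 pyrimidines in the 18 bases before the AG.
SNRPA1 exon 4: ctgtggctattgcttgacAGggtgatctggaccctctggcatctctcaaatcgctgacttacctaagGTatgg

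Its inclusion was 0.817, 0.803 and 0.803 for group 1 against 0.879, 1.0 and 0.945 for group 2 (difference -0.134, at least 49 reads). The groups did not overlap, but the skipping reads were few, 14 to 15 against 0 to 7. They start from an upstream exon that is in 1 GENCODE transcript, whereas exon 4 itself is in 9. Inclusion reads can therefore come from transcripts with other upstream exons, and the level is not the share of all SNRPA1 transcripts with exon 4. When exon 4 was set against exon 5 after exon 3, its level was 0.792, 0.659 and 0.637 for group 1 against 0.485, 0.517 and 0.546 for group 2, a difference of 0.18 in the other direction. The 2 events use different exons on both sides. Downstream stood exon 5 in the first event and exon 7 in the event that set exon 4 against exon 5.

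Of the 6 U5 snRNP genes, 5 rose and 1 did not pass the test (median log2 fold change 0.41). DDX23, the helicase that helps the tri-snRNP to join, was at 527, 485 and 503 CPM in shCtrl and at 815, 813 and 770 CPM in shRBM39. It rose by 58.4% without overlap (log2 fold change 0.66, SE 0.04, adjusted p = 1.58e-16). PRPF8, the scaffold at the catalytic centre, rose by 0.40 on the log2 scale and the GTPase EFTUD2 by 0.30. SNRNP200, the helicase that unwinds U4 from U6, was at 545, 542 and 541 CPM in shCtrl and at 565, 552 and 515 CPM in shRBM39, and its groups overlapped (log2 fold change 0.0037, SE 0.04, adjusted p = 0.941). With library totals alone it was called lower (-0.12, adjusted p = 0.00471) and correcting for GC content and gene length made it a call in the other direction (0.13, adjusted p = 0.00156).

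In the U4/U6 and tri-snRNP set 7 of 8 genes rose and 1 fell, with a median log2 fold change of 0.33. SNRNP27, a small tri-snRNP protein, was at 67.3, 62 and 64.3 CPM in shCtrl and at 101, 103 and 106 CPM in shRBM39 (log2 fold change 0.68, SE 0.04, adjusted p = 1.99e-15). Of its exon bases 10.4% are shared with MXD1 on the same strand, which has 2678 counts. PRPF31, a U4/U6 protein known for its part in retinitis pigmentosa, followed at 0.63, with 22% of its exon bases opposite AC012314.8. PRPF38B was the exception. It was at 370, 363 and 363 CPM in shCtrl and at 328, 304 and 315 CPM in shRBM39, lower in all 3 knockdown libraries (log2 fold change -0.21, SE 0.04, adjusted p = 1.01e-05), whereas its paralogue PRPF38A rose by 0.29.

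**Figure D3:**
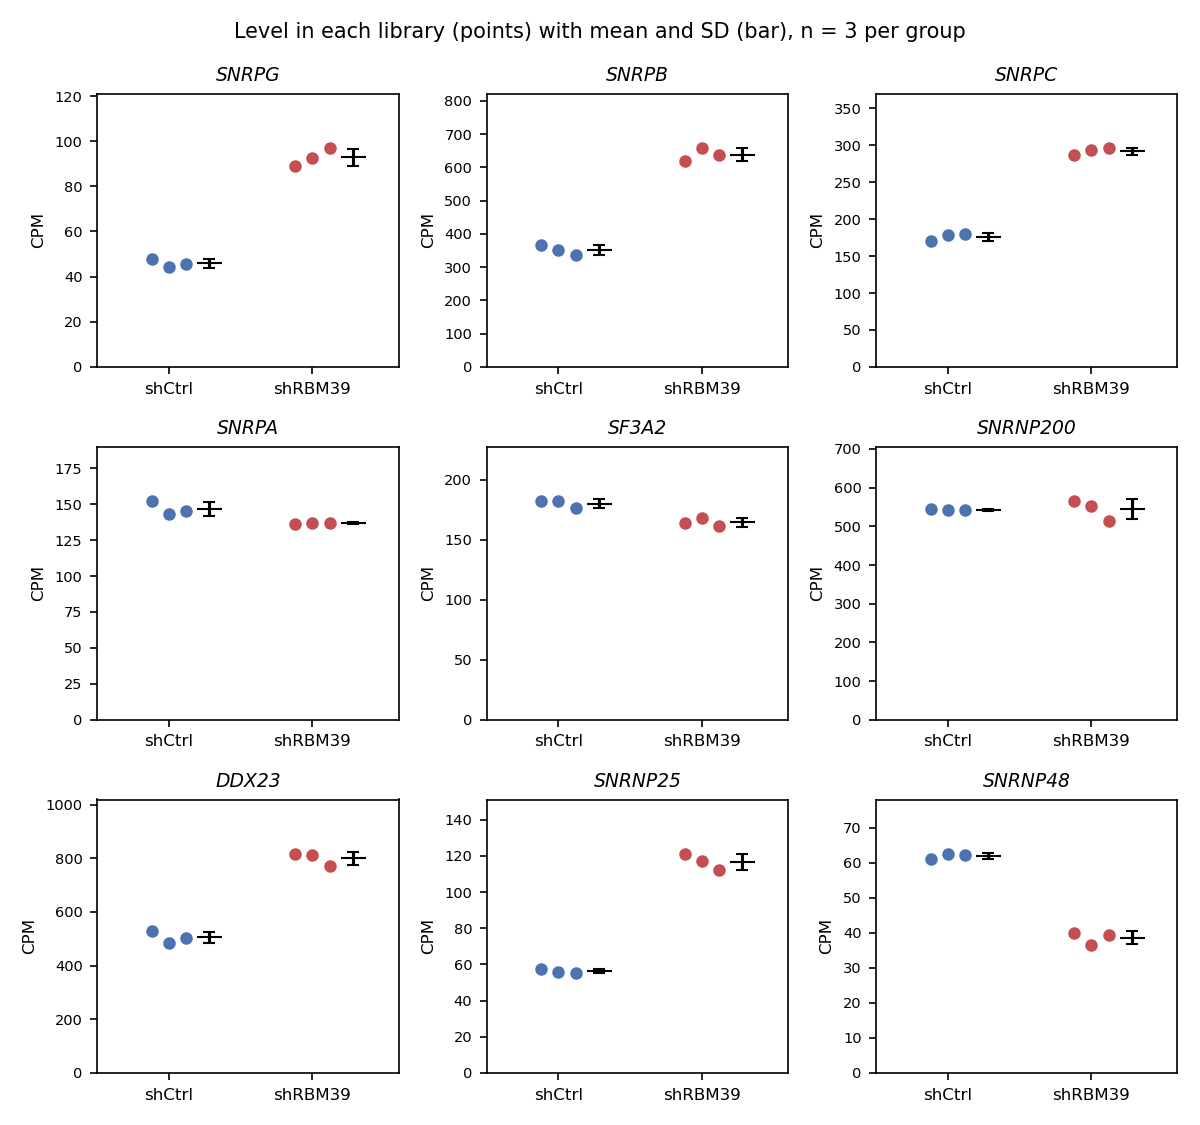
Levels in CPM (vertical axes, each starting at 0) of 9 spliceosome genes in the 3 shCtrl libraries (blue) and the 3 shRBM39 libraries (red); the black bars are the mean and SD. The groups are apart for all but SNRNP200, with SNRPA, SF3A2 and SNRNP48 lower in shRBM39; with DESeq2 SNRPA was not called.

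The Prp19 complex and activated spliceosome held 5 genes that rose and 1 that did not pass the test (median log2 fold change 0.29). BCAS2, a core Prp19 complex subunit, was at 16.2, 17.2 and 16.3 CPM in shCtrl and at 22.7, 22.7 and 27.4 CPM in shRBM39 (log2 fold change 0.55, SE 0.07, adjusted p = 6.5e-08). Its partners CDC5L and the ubiquitin ligase PRPF19 rose by 0.48 and 0.37. CWC22, which brings the exon junction complex to the spliceosome, was at 92.8, 80.5 and 91.1 CPM in shCtrl and at 90.9, 89.6 and 98.4 CPM in shRBM39. The groups overlapped (log2 fold change 0.08, SE 0.05, adjusted p = 0.16), and with library totals alone the change was -0.04.

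The 4 late factors, the helicases DHX16, DHX38 and DHX8 and the second-step factor SLU7, were called higher by small amounts, with a median log2 fold change of 0.17. DHX8, which releases the spliced mRNA, was at 83.9, 84.6 and 88.8 CPM in shCtrl and at 101, 106 and 99.3 CPM in shRBM39 (log2 fold change 0.25, SE 0.04, adjusted p = 3.69e-06). DHX38, needed for the second step, was at 504, 497 and 498 CPM in shCtrl and at 553, 533 and 531 CPM in shRBM39 (log2 fold change 0.11, SE 0.04, adjusted p = 0.00913). Neither gene had overlapping groups. The DHX38 call was lost with upper-quartile scaling (0.08, adjusted p = 0.0691) and its direction turned with library totals alone (-0.01, adjusted p = 0.745), where DHX16 and SLU7 lost their calls as well.

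The minor spliceosome removes a small class of introns with the U11 and U12 snRNAs in place of U1 and U2, and its 3 listed U11/U12 proteins showed the widest spread of any role. SNRNP25 was at 57.5, 56 and 55.3 CPM in shCtrl and at 121, 117 and 112 CPM in shRBM39, 2.07-fold higher and the highest change of the 57 (log2 fold change 1.05, SE 0.04, adjusted p = 1.24e-20). SNRNP48 was at 61, 62.4 and 62.2 CPM in shCtrl and at 39.8, 36.6 and 39.4 CPM in shRBM39, a fall of 0.68 on the log2 scale and the lowest change of the 57 (log2 fold change -0.68, SE 0.05, adjusted p = 2.14e-14). Both differences were far larger than the spread between libraries, but with DESeq2 the fall of SNRNP48 was no longer past 0.5. SNRNP35, which corresponds to the U1-70K protein in the U11 snRNP, was at 27.1, 25.9 and 25.7 CPM in shCtrl and at 25, 25 and 26.2 CPM in shRBM39 (log2 fold change -0.05, SE 0.06, adjusted p = 0.508). Its groups overlapped, and 40.1% of its exon bases lie opposite RILPL1.

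Another 65 spliceosome genes outside the list were read for comparison. Of these 49 rose, 6 fell and 10 did not pass the test, beside 29.2% higher and 29.9% lower among all tested genes. The median log2 fold change of the 65 was 0.24. With scaling by library totals alone 33 were called higher and 8 lower. The LSM ring, which takes the place of the Sm ring on U6 RNA, rose in all 7 genes, with LSM6 at 1.10 and LSM3 at 1.08. The highest was the tri-snRNP cyclophilin PPIH at 1.11, followed after the LSM genes by UBL5 at 0.73. The lowest called were ZRSR2, a U2AF1-related protein that acts on minor introns, at -0.49, the U1-related LUC7L3 at -0.39, the Sm assembly factor CLNS1A at -0.26 and the WW-domain protein WBP4 at -0.25. Of 4 further minor spliceosome genes 1, PDCD7, was called, at 0.27. In all, 7 of the 65 were higher by more than 0.5, beside 5.65% of all tested genes.

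**Figure D4:**
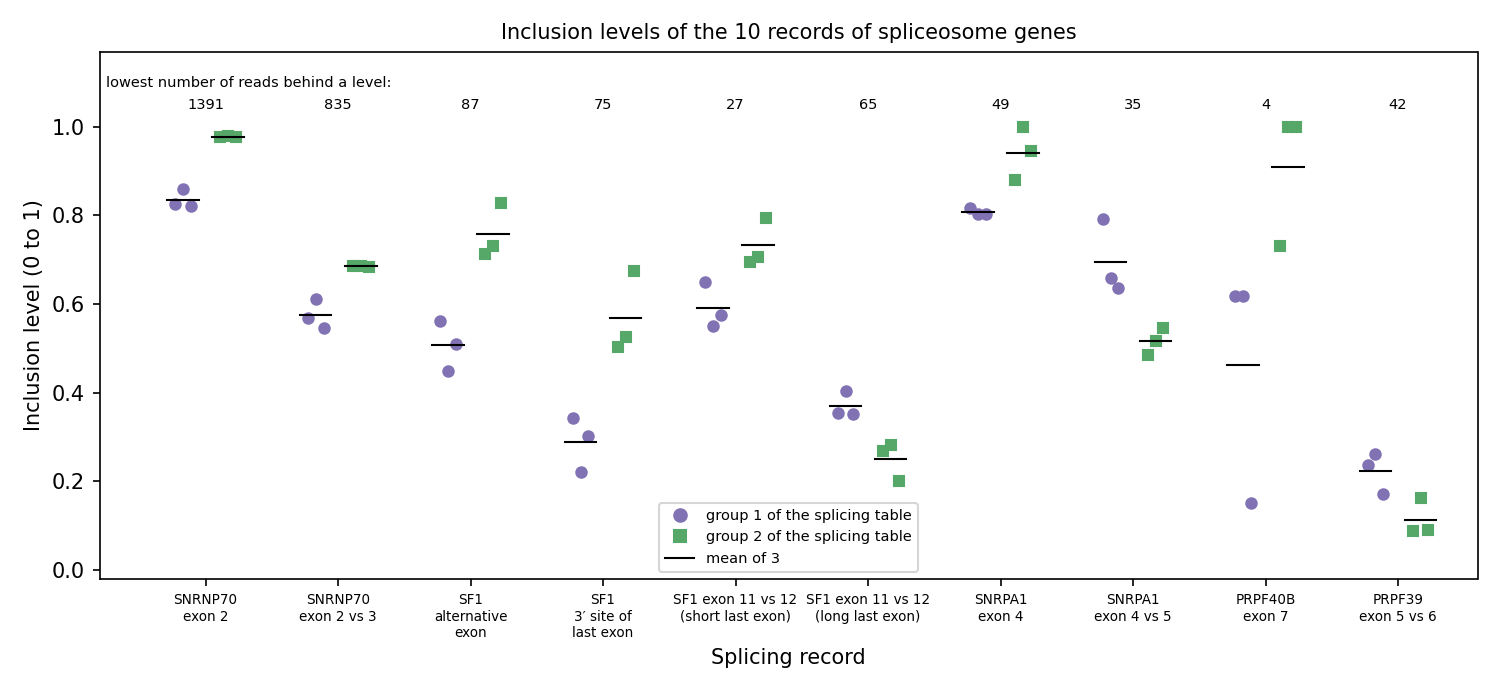
Inclusion level from 0 to 1 (vertical axis) of the 10 splicing events in 5 spliceosome genes (horizontal axis), with 3 values each of group 1 (purple circles) and group 2 (green squares), the mean as a black line, and the lowest number of reads behind a value on top. All 10 are without overlap, but the authors had selected the events, and PRPF40B exon 7 rests on as few as 4 reads.

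Across the 10 events the groups did not overlap in any, beside 57.6% of all 1582 events in the same selected table. All 4 skipped-exon events of the spliceosome genes had lower inclusion in group 1, as had 72.6% of the 1263 skipped-exon events of all genes. The 5 genes with an event included 4 whose mRNA rose and 1, PRPF40B, whose mRNA fell. The changes in mRNA level were related to gene length among the 57: Spearman's rho of the log2 fold change and merged exon length was -0.50, beside -0.08 over all tested genes. Once counts were corrected for GC content and length, rho was -0.42 among the 57. This is a description across genes that share the same 6 libraries, and genes are not independent replicates.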

How the data were processed

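mRNA of SW480 cells was sequenced in 3 shCtrl and 3 shRBM39 libraries, grouped by sample title; columns named NC were taken to be shCtrl, as the series has no other control. The deposited counts are raw reads per gene symbol on GRCh38; the submitters' processing notes name Trimmomatic 0.36, STAR 2.5.3a, Subread 1.5.1 (featureCounts) and edgeR 3.12.1. Strand setting, multi-mapped reads and collapsing of unique identifiers are not given in the sources used here, which matters for overlapping genes and close copies. The authors' splicing table (rMATS) holds inclusion and skipping reads and inclusion levels; its p-values, FDR and group differences, the RPKM table and the event tally were not used.

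The test was edgeR's quasi-likelihood fit on group (edgeR 4.0.16, R 4.3.3) after filterByExpr and TMM, with Benjamini-Hochberg adjustment over the 18243 tested genes at 0.05, and glmTreat against 0.5. Exon numbers came from GENCODE 44, promoters from RefSeq. Levels were recomputed from the deposited reads to within 0.0005. Same-numbered libraries were not paired (correlations of their deviations 0.00612, -0.0282 and 0.000114), and replicates differed beyond counting noise (chi-square per degree of freedom 2.01 to 3.9). Alternatives were DESeq2 1.42.0, other scalings and filters, the replicate block, a GC and length correction and leaving out each library. The fits were also run on simulated counts in which few genes change, unlike in these data, and no conclusion is drawn from that run. Per-library values were given for each role's highest and lowest gene, genes called against their role's majority and genes with a splicing event. The genes and lists were chosen with earlier results of these data known.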

Additional observations from a re-analysis of the deposited data

How the results depend on the processing

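The number of spliceosome genes called was 50 to 54 of 57 under every alternative. With scaling by library totals alone 8 instead of 5 were called lower, and 7 instead of 15 were higher by more than 0.5; since all fold changes shift together there, this follows from the scaling. With DESeq2 the number lower by more than 0.5 was 0 instead of 1; the cause was not tested. SNRNP200 turned to -0.03 with upper-quartile scaling, -0.12 with library totals alone, -0.0041 with at least 10 counts in every library, -0.02 without shRBM39 replicate 1 and -0.0023 without shRBM39 replicate 2, and leaving out single libraries gave it -0.02 to 0.05. DHX38 turned to -0.01 and CWC22 to -0.04 with library totals alone, where U2AF1L4 (-0.27) and SNRNP35 (-0.17) were also called lower and DHX16, PLRG1, AQR, SART1 and SLU7 lost their calls. Leaving out 1 library gave 52 to 53 spliceosome genes called, 48 higher and 4 to 5 lower, 13 to 15 higher by more than 0.5, and an RBM39 log2 fold change of -0.70 to -0.63.

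With the replicate number as a block 10810 genes were called instead of 10790, and 53 spliceosome genes, as without the block; no call among the 57 changed. The libraries share only a number.

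Without the length correction the inclusion differences were -0.163 and -0.183 for the SF1 exon and last exon and -0.0715 for SNRNP70 exon 2. With at least 20 reads in every value 9 events remained, without PRPF40B. Leaving out single values, chosen after seeing the data, turned no difference, but moved that of PRPF40B exon 7 from -0.447 to -0.292 at the least. Counts of 3 libraries per group limit the precision of small changes such as that of SNRPA.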

Other observations

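Beside CCGGAAG, 5 other motifs were searched on both strands of the same promoters. CCAAT was in 43.1% of the 51 spliceosome promoters and in 36.6% of the 10702 promoters of tested genes. CACGTG was in 5.88% and 10.1%, and TATAAA in 1.96% and 5.67%, the single TATAAA match being in SNRPC. The longer NRF1-type motif was in 1.96% and 2.23%, and the YY1-type motif, whose first letters can overlap the end of CCGGAAG, in 1.96% and 1.93%. These are counts of letters, with no test.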
